A study of Mus musculus with 4 samples.

Results

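Broad stretches of the autosomes held more histone H3 reads in pro-B cells than in embryonic stem (ES) cells or myotubes. The stretches are described here as bins of 100 kb, chosen by their own H3 values. A bin was a member when its level in the pro-B library lay 0.5 or more above its level in each of the other 3 libraries on the log2 scale, or 1.41-fold. The level is the log2 of the bin's count of distinct read positions over the median bin of the same chromosome and library, so a chromosome that is shifted as a whole does not create members. Bins with a mean of fewer than 100 positions over the 4 libraries were left out. Chromosome 8, chromosome 12 past 113000000 and chromosome 6 from 67000001 to 71500000 (mm8) were left out as well. Of the 22009 eligible bins, 1756 were members, or 7.98%. Because the choice rests on the difference between pro-B and the other libraries, that difference and everything measured from it are given as description, with no test.

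Each of the 4 groups had 1 library, precipitated with an antibody against total H3. The pro-B library came from 38B9 cells, a mouse pro-B line kept in RPMI medium with serum. Myotubes were C2C12 cells, a mouse muscle precursor line, differentiated in horse serum for 48 h. The ES libraries were both from the V6.5 line, of C57BL/6-129 background, which was taken off its feeder cells before harvest. One was from untreated cells and the other from cells given SB431542, which blocks the kinase of TGF-beta type I receptors, for 24 h (10 uM). Each cell type is thus represented by a single established line, so that a cell type and the line it came from cannot be told apart. Cell identity could not be checked on marker genes, since reads of H3-bound DNA do not measure expression and no gene was placed on the bins.

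H3 is a core component of the nucleosome, the unit in which DNA is wrapped around histones. Because nucleosomes cover most of the genome, a total H3 library is spread over nearly all mappable sequence, unlike a library for a histone mark. How many reads a stretch yields depends on how many copies of the DNA the cells carry, on how densely it is wrapped, and on how well its chromatin is sheared and recovered. Pro-B cells are early B lymphoid cells at the stage when the immunoglobulin heavy chain genes are rearranged, and the heavy and kappa chain loci are not among the bins described here. No library of unprecipitated DNA was used here, so DNA copies and H3 recovered per copy cannot be told apart in any value below.

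The libraries were of similar depth, with 13102915 to 13852985 distinct positions. With no replicates, there was no test between conditions, and the 95% intervals are exact conditional binomial intervals that cover counting error only. They take no account of the choice of bins and domains by this same difference, so none of them serves as a test. The SB431542 library came from a later sequencing run than the other 3, per the file headers.

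The members held 13.0% of the pro-B positions in eligible bins, against 8.27% of those of untreated ES cells, 8.24% of SB431542-treated ES cells and 8.17% of myotubes. A member bin had a median of 900 positions in pro-B cells, 590 in untreated ES, 595 after SB431542 and 548 in myotubes. In the eligible bins that were not members the medians were 510, 568, 574 and 537 in the same order. Members therefore were not bins with few reads elsewhere: they lay near the middle of the other libraries' ranges and well above it in pro-B cells.

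In levels relative to the chromosome median, the median member stood at 0.79 in pro-B cells, 0.05 in untreated ES, 0.05 after SB431542 and 0.04 in myotubes. Pro-B cells were above their own chromosome median in 1711 of the 1756 members and at least 2-fold above it in 374. Each of the other libraries was within 0.25 of its median in 1049 members, or 59.7%, close to the 54.1% of all eligible bins for which that held. All 3 other libraries were above their medians in 718 members (40.9%, against 31.5% of all eligible bins) and below in 443 (25.2% against 32.5%). In 398 members (22.7%, against 7.47% of all eligible bins) pro-B cells were above the median while the other 3 were below it, a state that the rule itself favours.

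**Figure D1:**
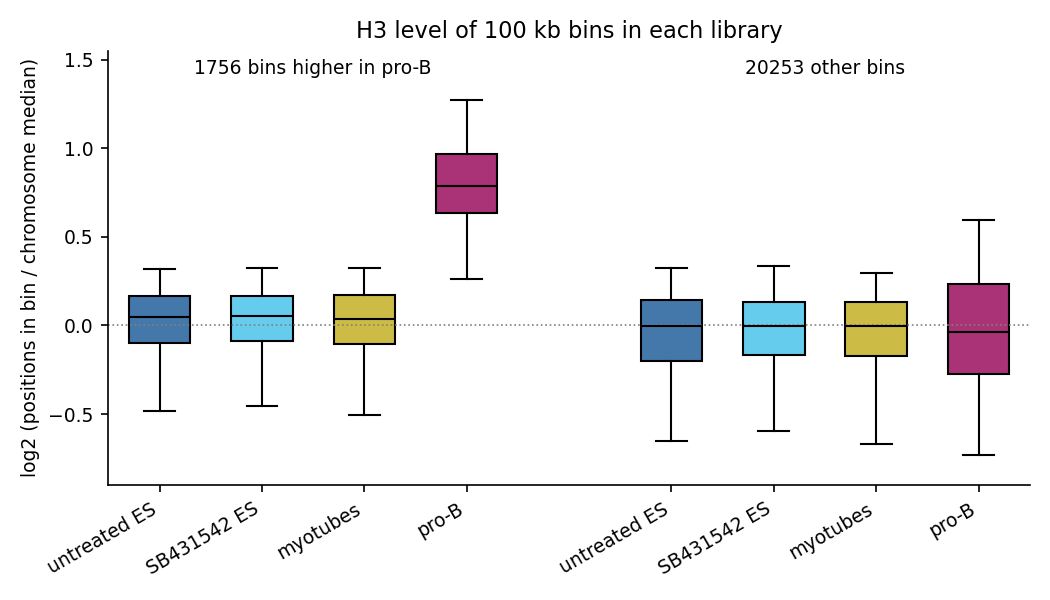
Levels of 100 kb bins (log2 of positions over the chromosome median, vertical axis) in each library, for the 1756 members on the left and the 20253 other eligible bins on the right. Boxes span the 25th to 75th percentile with the median as a line, and whiskers reach the 5th and 95th percentiles. The pro-B box of the members, with its median at 0.79, was raised by the choice of members, while the other 3 libraries kept medians of 0.04 to 0.05.

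The size of the excess was moderate in most members. The median difference was 0.74 from untreated ES, 0.73 from SB431542-treated ES and 0.75 from myotubes. By the smallest of the 3 differences, 680 members lay between 0.5 and 0.6, 552 between 0.6 and 0.75, 402 between 0.75 and 1, and 122 at 1 or more. The library nearest to pro-B was myotubes in 681 members, SB431542-treated ES in 569 and untreated ES in 506. No single other library thus set the limit for most members.

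The bins at the threshold formed a continuous series. Just inside were chromosome 5 from 100700001 to 100800000 with a smallest difference of 0.5001, chromosome 9 from 66700001 to 66800000 with 0.5002 and chromosome 15 from 36500001 to 36600000 with 0.5002. Just outside were chromosome 19 from 9900001 to 10000000 with 0.4999, chromosome 9 from 81500001 to 81600000 with 0.4999 and chromosome 17 from 62600001 to 62700000 with 0.4992. The bin just inside on chromosome 9 had 917 positions in pro-B cells, 702 in untreated ES, 687 after SB431542 and 657 in myotubes, and the bin just outside on chromosome 19 had 791, 595, 613 and 534. Neither set stands apart from the other by its counts.

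The reverse was rarer. By the mirrored rule, 187 bins (0.85%) were lower in pro-B cells than in each of the other libraries. Myotubes were higher than each of the others in 5 bins (0.0227%) and lower in 34 (0.154%). The first of these counts depends on the scaling: with each library scaled to its median autosomal bin in place of the chromosome median, it was 71, while the pro-B count was 1698. The same rule says little about either ES library, because the other one comes from the same cells. When SB431542-treated cells were omitted, untreated ES cells were higher than both others in 51 bins (0.232%), myotubes in 10 (0.0454%) and pro-B cells in 2008 (9.12%). The pro-B library also varied most along the genome, with a standard deviation of the level over all eligible bins of 0.50, compared with 0.35 for untreated ES, 0.33 for SB431542-treated ES and 0.38 for myotubes.

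**Figure D2:**
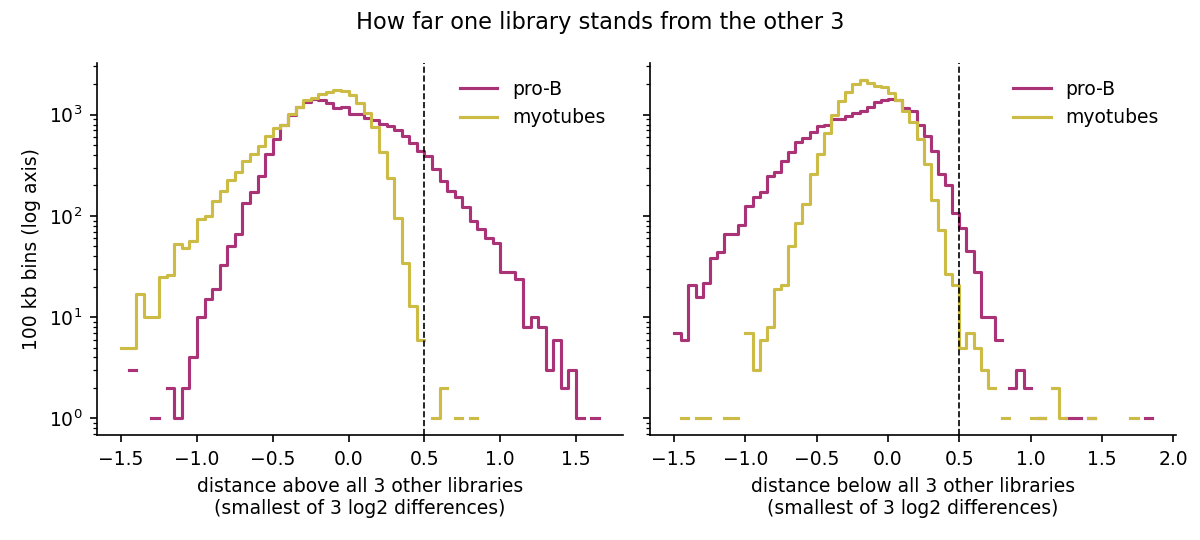
Number of 100 kb bins (log axis) by how far pro-B cells or myotubes stood above all 3 other libraries (left) or below all 3 (right), as the smallest of the 3 log2 differences in steps of 0.05. The dashed line is the threshold of 0.5. On the left the pro-B curve runs past the line for 1756 bins and the myotube curve for 5; on the right 187 and 34 bins lie past it. Levels are scaled to the chromosome median; with the median autosomal bin instead, 1698 and 71 bins lie past the line on the left.

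Members were found on all 18 autosomes examined. Their share was highest on chromosome 13, where 124 of 1121 bins were members (11.1%), chromosome 7 with 137 of 1280 (10.7%) and chromosome 9 with 119 of 1201 (9.91%). It was lowest on chromosome 16 with 40 of 948 (4.22%), chromosome 14 with 60 of 1117 (5.37%) and chromosome 10 with 74 of 1264 (5.85%). Chromosome 16 also had 34 of the bins that were lower in pro-B cells, more than any other of these autosomes. The median difference from untreated ES varied little between chromosomes, from 0.67 on chromosome 19 to 0.79 on chromosome 13. Along the chromosomes, members made up 6.94% of the fifth nearest the centromere, 7.26% and 7.22% of the next parts, 9.70% of the fourth and 8.71% of the fifth nearest the telomere.

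Members were not limited to stretches with many or few H3 reads in the other cells. The eligible bins were ranked by their mean level in the other 3 libraries and parted into 10 groups of equal size. Members made up 5.45% of the lowest group, 10.7% of the highest and 5.27% to 10.1% of the groups between them. The level of the other libraries is part of the rule, so these shares are descriptive.

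Position was not used to choose members, and they lay next to each other. Of the 3496 eligible bins that bordered a member, counted once per member, 1572 were members too, or 45.0% against the 7.98% of all eligible bins. The share fell with distance, to 31.2% at 200 kb, 17.7% at 500 kb, 11.7% at 1000 kb and 9.37% at 2000 kb. Adjacent members formed 970 runs. Of these, 584 were a single bin, 213 were pairs, 173 had 3 or more members and 59 had 5 or more. The widest run had 12 members, and the runs of 3 or more held 746 members. Among the 187 bins lower in pro-B cells, 130 of 361 bordering bins were of that kind, and 88 stood alone. Such bins made up only 0.85% of all eligible bins. Set against that share, they lay next to each other more strongly than members did, so clustering was not particular to members.

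**Figure D3:**
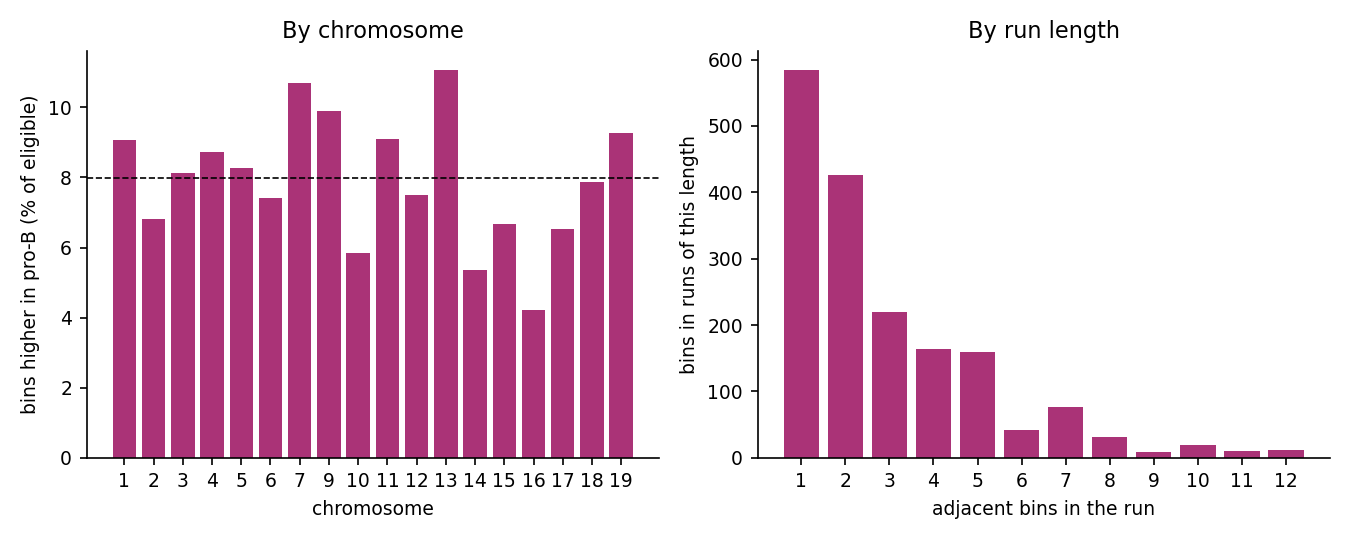
Left, members as a percentage of the eligible bins on each chromosome, with the share over all 18 autosomes (7.98%) as a dashed line; the bars range from 4.22% on chromosome 16 to 11.1% on chromosome 13. Right, number of members in runs of each length, in adjacent 100 kb bins, with 584 in runs of a single bin and 12 in the widest run.

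The difference was larger in wider runs. The median of the smallest difference was 0.59 in lone members, 0.65 in pairs, 0.68 in runs of 3 to 4 and 0.71 in runs of 5 or more. At least 2-fold above every other library were 17 of 584 lone members (2.91%) and 47 of 363 members in runs of 5 or more (12.9%). Runs are formed by a threshold on this same difference. Bins 100 kb apart were also alike in their difference from untreated ES (Pearson r 0.74). Higher bins thus tend to fall in wider runs by the rule itself, so these values are descriptive. The bins beside a lone member were mostly raised too, below the threshold. Their median smallest difference was 0.29, with 1026 of 1159 above 0, whereas it was -0.10 over all bins that were not members, with 38.2% above 0. Relative to the chromosome median, most neighbours of lone members thus also stood higher in pro-B cells than in any other library.

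At the edges of the 173 runs of 3 or more members, the fall was gradual. In 20 kb steps, the mean pro-B level was 1.89 times the chromosome median at 80 to 100 kb inside the edge, 1.58 times in the last 20 kb inside, 1.41 times in the first 20 kb outside and 1.27 times at 80 to 100 kb outside. Some of this fall is set by the choice of the outermost member as the edge. Further out it was still 1.22 times at 480 to 500 kb, where 16.4% of the pieces lay in other members. The mean over all bins that were not members was 1.01 times. Untreated ES cells stayed between 0.932 and 1.02 times across the same distances, SB431542-treated ES cells between 0.949 and 1.03 times and myotubes between 0.957 and 1.04 times. In those libraries the edges could not be seen.

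**Figure D4:**
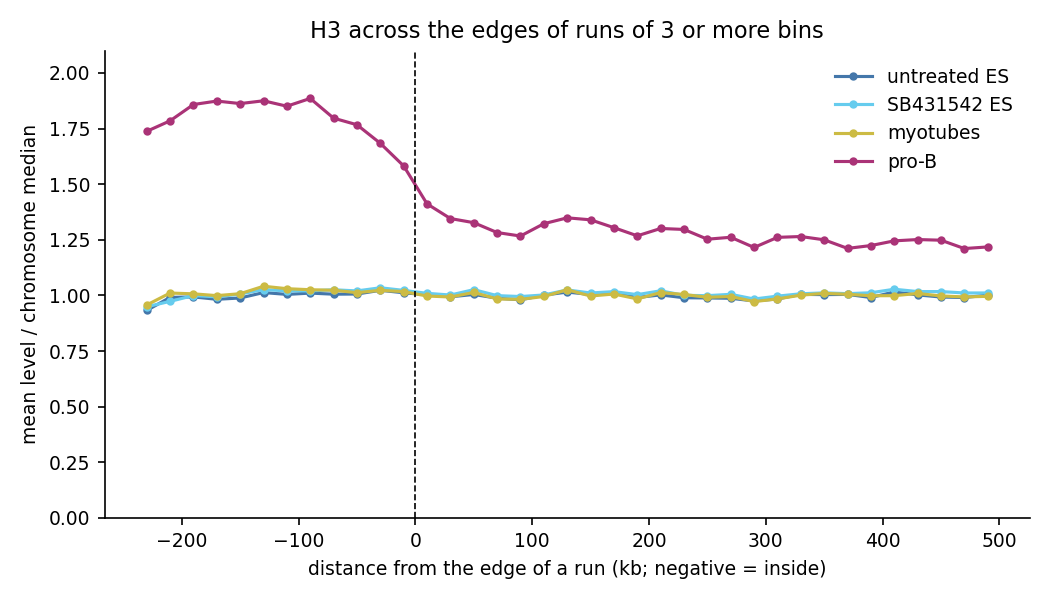
Mean level relative to the chromosome median (vertical axis, linear) in 20 kb pieces by distance from the edge of the 173 runs of 3 or more members, with the inside at negative distances and both edges of each run combined. Points are means over at least 100 pieces. Pro-B cells fell from 1.89 to 1.41 times between 100 kb inside and 20 kb outside and lay between 1.21 and 1.35 times from 20 to 500 kb outside, while the other 3 libraries stayed close to 1.

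Runs were joined into domains across gaps of up to 2 bins that were not members, which gave 751 domains. Of these, 86 had 5 or more members, together 618 members (35.2%), with at least 1 such domain on each of the 18 autosomes. Domains of 10 or more members numbered 14, on 10 autosomes. Of 2079 megabases with 10 eligible bins, 1327 (63.8%) held no member and 72 held 5 or more, together 434 members. Members were thus found on every autosome examined, and most of these megabases held none. Members were only 7.98% of the eligible bins, so scattered members would also leave many megabases empty. That share was not worked out.

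The domain with the most members lay on chromosome 1 from 145500001 to 148300000, with 18 members among 28 bins. It held 21621 positions in pro-B cells, 13561 in untreated ES, 14222 after SB431542 and 14232 in myotubes. The ratio of pro-B to untreated ES, each scaled to its chromosome median, was 1.66 (interval 1.63 to 1.70). The domain ranked next, with 15 members among 21 bins, lay close by from 142500001 to 144600000, with 15316 positions in pro-B cells against 9862, 10275 and 10282. Its ratio to untreated ES was 1.62 (1.58 to 1.66). In all 28 and all 21 bins the pro-B library was the highest of the 4, which the rule fixes for the 18 and 15 members among them. It was also the highest in all 20 flanking bins within 1 Mb of each domain. These flanks overlap between the domains, and each takes in 1 member at the end of the other domain. On this part of chromosome 1 the other libraries lay below their chromosome medians, at -0.19, -0.15 and -0.10 in the first domain, and pro-B cells above, at 0.54.

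A domain on chromosome 11 from 44200001 to 45400000 differed from those on chromosome 1 in height and in outline. All 12 of its bins were members, the widest unbroken run. It held 15599 positions in pro-B cells, 7331 in untreated ES, 7405 after SB431542 and 7169 in myotubes. The ratio of pro-B to untreated ES was 2.35 (2.28 to 2.41), the highest among the 10 domains with the most members. Its bins ranged from 0.79 to 1.94 in level in pro-B cells and from -0.23 to 0.28 in untreated ES, so the ranges did not overlap. In the 20 bins within 1 Mb outside it, the median difference from untreated ES was 0.19, against 0.57 beside the first domain of chromosome 1, and pro-B cells were the highest library in 13.

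Chromosome 7 from 99800001 to 101400000 had 14 members among 16 bins. This domain held 14501 positions in pro-B cells, 10457 in untreated ES, 10427 after SB431542 and 6976 in myotubes. The low myotube count goes with a low count on the whole chromosome in that line, and after scaling to the chromosome the myotube level was 0.12, near the 0.21 of untreated ES and the 0.23 of SB431542-treated ES. Pro-B cells stood at 0.95 in level, and the ratio to untreated ES was 1.66 (1.62 to 1.71).

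Chromosome 13 carried a pair of the 10 domains. From 82500001 to 84200000 there were 14 members among 17 bins, with 14872 positions in pro-B cells, 8581 in untreated ES, 9323 after SB431542 and 9662 in myotubes. Here the ratio depended most on the cells compared, at 1.91 (1.86 to 1.96) to untreated ES, 1.81 (1.76 to 1.85) to SB431542-treated ES and 1.62 (1.57 to 1.66) to myotubes, so that myotubes lay between ES and pro-B cells. The domain from 32100001 to 33800000 spanned 1700 kb, of which only 15 bins were eligible, and 12 of these were members. It held 12113 positions in pro-B cells and 7358, 7418 and 7857 in the others. Its ratio to untreated ES was 1.81 (1.76 to 1.87). Its member from 33200001 to 33300000 was poor in reads, with 248 positions in pro-B cells and 135 in untreated ES.

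The other 4 of these 10 domains were of like height. Chromosome 18 from 39500001 to 41000000 had 13 members among 15 bins and a ratio to untreated ES of 1.68 (1.63 to 1.72). Chromosome 12 from 42600001 to 43900000 had 12 among 13 and a ratio of 1.69 (1.64 to 1.74). Chromosome 3 from 52000001 to 53400000 had 11 among 14 and a ratio of 1.66 (1.62 to 1.71). Chromosome 19 from 32000001 to 33300000 had 11 among 13 and a ratio of 1.71 (1.67 to 1.76). In 3 of these domains pro-B cells were the highest library in every bin, and on chromosome 3 in 13 of 14. The rule fixes this for the members, so only the few bins between them were free to differ.

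**Figure D5:**
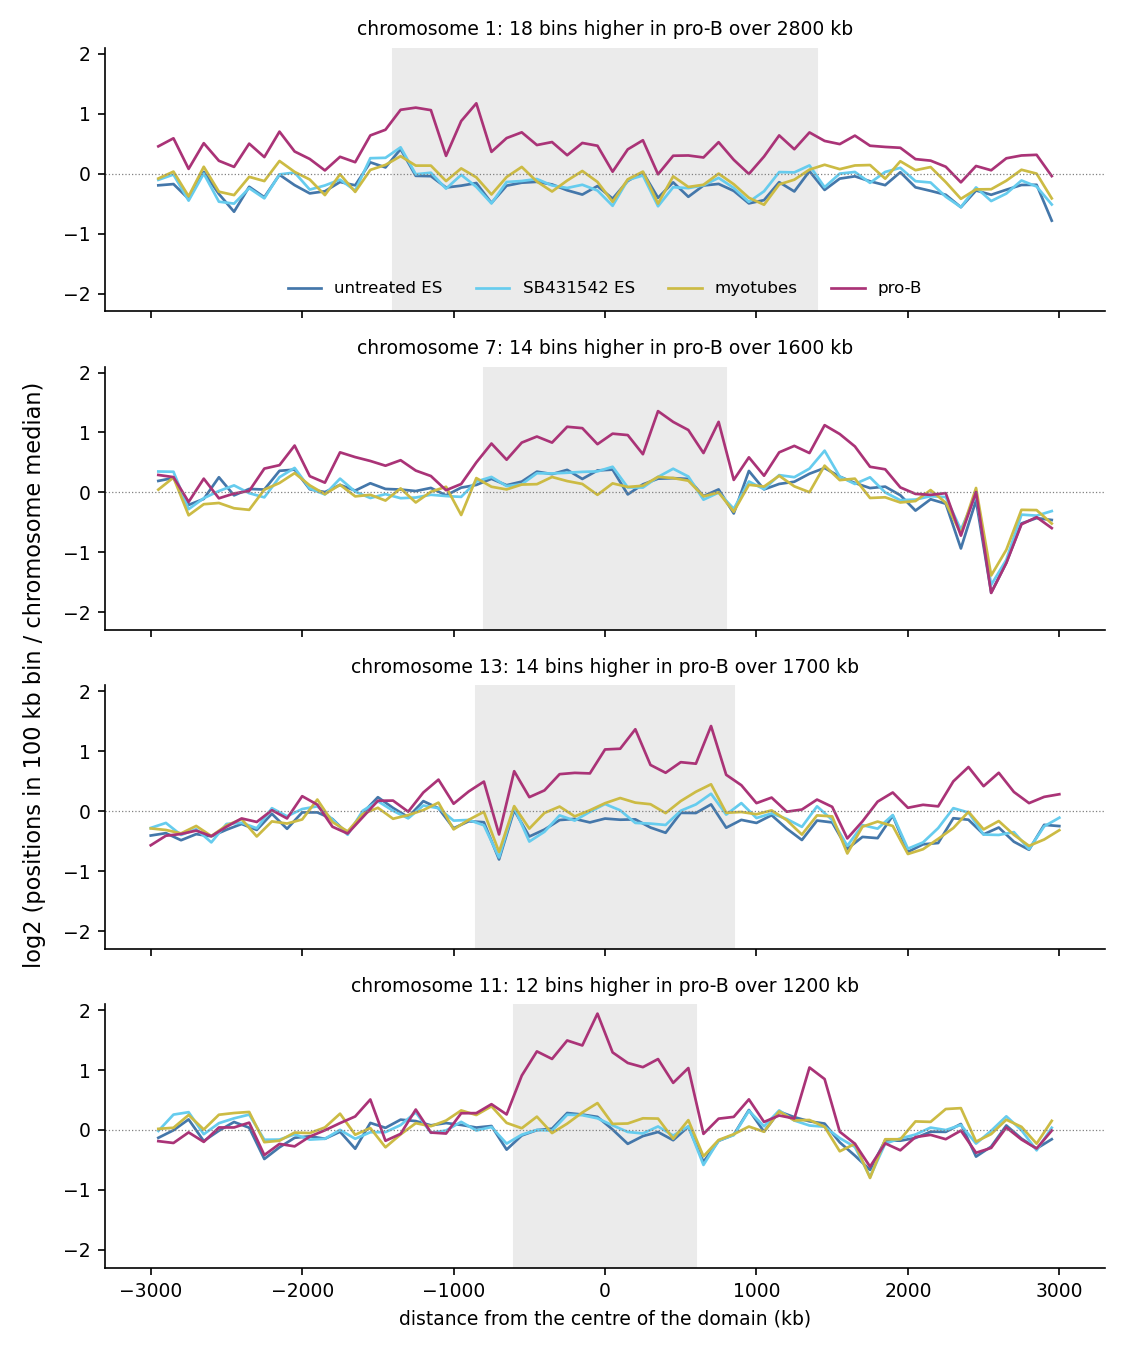
Level of each 100 kb bin (log2 of positions over the chromosome median) in the 4 libraries across 4 of the 10 domains with the most members, by distance from the centre of the domain in kb, with the domain shaded. On chromosome 1 the pro-B line lies above the others across the shaded part and beside it, and on chromosome 11 it rises to 1.94 within a domain of 1200 kb and falls to near the others at its ends, with a separate rise further to the right.

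Single bins reached larger differences than any domain as a whole. The highest smallest difference, 1.64, was on chromosome 15 from 63400001 to 63500000, with 1720 positions in pro-B cells, 545 in untreated ES, 530 after SB431542 and 711 in myotubes, and a ratio to untreated ES of 3.39 (3.08 to 3.74). Chromosome 6 from 48600001 to 48700000 followed at 1.53, with 1464 positions in pro-B cells against 578, 556 and 471. The peak bin of the chromosome 11 domain, from 44700001 to 44800000, was at 1.49, with 2089 positions against 698, 679 and 737. In these bins the pro-B count was more than double that of any other library.

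The other 7 of the 10 highest bins had smallest differences of 1.38 to 1.47. They lay on chromosome 18 from 15300001, chromosome 15 from 9400001, chromosome 6 from 120500001 and from 129200001, chromosome 3 from 106900001, and chromosome 4 from 102100001 and from 102200001. The bins on chromosome 4 adjoin each other and are not separate observations. None of the 10 highest bins stood alone, since each was in a run of 2 to 12 members. The bin on chromosome 3 had low levels in the other libraries, from -0.57 to -0.55, and 921 positions in pro-B cells against 371, 381 and 367.

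Within members, the excess was spread over most of the bin. Each member was divided into pieces of 10 kb, and pieces with a mean of fewer than 10 positions were left out. The pro-B library was the highest of the 4 in 15936 of 17358 pieces (91.8%), against 30.9% of the pieces of other eligible bins. The pieces lie in bins chosen for their pro-B excess, so the gap between these shares is set in part by the choice. Of the 1654 members in which all 10 pieces could be counted, 816 had pro-B cells highest in all 10, 474 in 9, 255 in 8 and 3 in 5 or fewer. The piece with the most excess held a median of 22.1% of the excess of its bin. Counting error alone lifts the largest of 10 pieces above 10%, even where the excess is even, and by how much was not worked out. The excess was therefore not held by a single piece in most members, and how uneven it was cannot be read from this share.

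Narrow sites were dense in the same bins. A site was a window of 1 kb with 20 or more pro-B positions, and 3 or more times as many as the highest of the other libraries after scaling. Members held 2733 such sites, or 15.6 per Mb, and other eligible bins held 1285, or 0.634 per Mb. In all, 1081 members (61.6%) had at least 1 site and 675 had none. The chromosome 11 domain had 38.3 sites per Mb, against 10.7 and 3.33 in the 2 domains of chromosome 1. Sites and members come from the same contrast, so that their overlap is a description.

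With the sites removed from all 4 libraries, the median difference from untreated ES over the members fell from 0.74 to 0.71, and 1613 of 1756 members still met the rule. With the looser limit of 2 times, which takes out 7380 windows in the members, the median was 0.67 and 1353 members met the rule. The 675 members without any site had a median difference of 0.67. Most of the excess was thus counted outside the sites.

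Reads on one strand gave the same picture as reads on the other. Members chosen on plus-strand positions alone, with a minimum mean of 50, numbered 1633, and on the minus-strand positions, which had no part in the choice, pro-B cells were the highest library in all 1633. Their median difference from untreated ES was 0.75 on the plus strand and 0.75 on the minus strand. In the reverse direction 1678 members were chosen, and in 1676 of them pro-B cells were highest on the strand not used. The threshold of 0.5 was met on the other strand by 76.5% and 74.5%. Both strands come from the same libraries, and both ends of a fragment can be read, so that this is a check on counting error and not a replicate.

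Reads with 2 listed places were not used by the rule and gave a smaller excess in the same direction. Of the members, 1539 had a mean of at least 10 such lines and at least 1 line in each library. There the median difference of pro-B cells was 0.38 from untreated ES, 0.39 from SB431542-treated ES and 0.44 from myotubes, and 1199 (77.9%) lay above 0 against untreated ES. In the 16829 other bins that met this minimum the medians were -0.01, 0.01 and 0.03. Each such read is listed at both places, of which at most 1 is its origin, and the median count was only 24 lines per member in pro-B cells.

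The other libraries were about as alike in the members as over all eligible bins, or slightly more so. Myotubes minus untreated ES had a median of 0.00 in members and 0.01 over all eligible bins, and the 5th to 95th percentiles ran from -0.28 to 0.27 in members and from -0.31 to 0.30 over all. Myotubes were 0.25 or more above untreated ES in 110 members (6.26%) and 0.25 or more below in 120 (6.83%), against 9.47% and 9.68% of all eligible bins. SB431542-treated and untreated ES cells lay within 0.25 of each other in 1727 members (98.3%), against 97.1% of all bins. The rule holds each of these libraries below pro-B cells by the same minimum but sets no order among them. It drops bins in which any of them comes near pro-B cells, which can narrow their spread, so these values are descriptive.

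Repeated reads, which the counts above leave out, were somewhat more frequent in the members in pro-B cells and not in the others. They were 3.44% of the pro-B reads in members and 2.73% in other eligible bins, whereas they were 2.64% and 2.84% in untreated ES, 5.36% and 5.53% in SB431542-treated ES, and 3.24% and 3.46% in myotubes. With all reads kept there were 1819 members. Plus-strand positions were 50.0% of the pro-B positions in members and in other bins. The most frequent spacing from a plus-strand position to a minus-strand position was 50 bp in members and 53 bp elsewhere in pro-B cells, 50 and 54 bp in untreated ES, 45 and 45 bp in SB431542-treated ES, and 57 and 54 bp in myotubes.

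A few members had few reads in some library and are not read as broad gains on their own. In 16 members at least 1 library had fewer than 150 positions. On chromosome 4 from 88800001 to 88900000, myotubes had 0 positions against 481 in pro-B cells, 320 in untreated ES and 330 in SB431542-treated ES. Its membership therefore rests on the ES libraries. Chromosome 7 from 105900001 to 106400000 held 4 of the 16, with 170 to 359 positions in pro-B cells and 92 to 238 in the others. Chromosome 19 from 61300001 to 61400000 had the lowest pro-B count among members, 152 against 92, 98 and 75.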

How the data were processed

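H3-bound DNA was sequenced from 4 libraries, 1 per group. In the deposited files every aligned read is a signed genome position, with the sign for the strand and no other value. Per the file headers, the authors used Bowtie on mm8 and kept reads with at most 2 places and at most 2 mismatches in a seed of 36 bases; the version is not given in the sources used here. The files' first section was read as reads with 1 place and the second as reads with 2 places, both listed, from the section names and these options. The authors kept repeated reads; here 1 read per position and strand was counted.

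Counting was done with Python 3.11.15, numpy 2.4.6, pandas 2.3.3 and scipy 1.17.1. The member rule was run on simulated counts with known raised bins. Apart from these bins the simulated libraries differed by counting error only. The run therefore checked the calculation and gives no error rate for the real libraries. Members, lists and the rule for named regions (the 10 domains with the most members, the 10 highest bins, and 3 bins on each side of the threshold) were chosen with earlier results of these data known. A count of 0 was set to 0.5 before taking the log. The narrow sites were scaled to all autosomal positions. The gene table at hand is of GRCm38, so no gene or sequence was placed on mm8 bins, and base composition was not analysed here. Bins with a small share of mappable sequence were not corrected. Alternatives are given in the closing section.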

Additional observations from a re-analysis of the deposited data

How the results depend on the processing

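Among 93 recomputed values, 44 differed by no more than counting error (for counts of bins, 1.5-fold) and 49 moved further. A change of direction was looked for only in the median differences between libraries, and 0 were found. The choice of members largely sets that direction, so this 0 is no sign of stability. Members numbered 1819 with all reads as deposited, 1653 with 2-place reads added, 1698 when scaled to the median autosomal bin (1492 of them shared), 1756 with the grid shifted by 50 kb, and 2008 without the SB431542 library. At thresholds of 0.3, 0.75 and 1 there were 4054, 524 and 122 members, 1610, 383 and 101 runs, 1192, 18 and 5 bins lower in pro-B cells, and 153, 1 and 0 higher in myotubes; lone members numbered 293 at 0.75 and 88 at 1. Bins of 50 kb gave 3696 members (8.43%), 1892 runs, 1108 alone, 427 lower and 23 higher in myotubes, and bins of 200 kb gave 780 (7.06%), 486, 309, 92 and 3. The myotube count of 5 became 71 when scaled to the median autosomal bin, 12 with 2-place reads, 3 at a minimum mean of 200, 10 without the SB431542 library, and 9 and 10 on the plus and minus strand alone. The median difference from untreated ES (0.737) was 0.75 with all reads, 0.720 with 2-place reads, and 0.745 and 0.743 on the strand not used for the choice. That from myotubes (0.75) was 0.763, 0.734, 0.759 with the other scaling and 0.762 on the minus strand. That from SB431542-treated ES (0.728) was 0.745, 0.715, 0.720, 0.738 and 0.734 in the same order, the last on the plus strand. Pro-B cells were highest in 84.2% of 5 kb and 97.3% of 20 kb pieces. In 2-place reads the difference was 0.356 at a minimum of 20 lines (802 bins) and 0.489 at 50 (133 bins). Without narrow sites it was 0.707, or 0.668 with the looser limit. Narrower bins, thresholds and minimums set their own counts; the cause of the other shifts was not tested. No paired analysis was possible because each group has 1 library. Depth limits single bins: for the member on chromosome 15 from 36500001, with 868 pro-B and 659 untreated ES positions, the ratio of 1.41 had an interval of 1.28 to 1.57.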

Other observations

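On chromosomes outside the rule, 85 of 1238 eligible bins of chromosome 8 (6.87%) were higher in pro-B cells than in each other library, in 41 runs of up to 11 bins, after scaling to that chromosome's median. On chromosome X there were 40 of 1425 (2.81%), in 28 runs of up to 5 bins. There the median bin held 243 positions in untreated ES, 260 after SB431542, 476 in myotubes and 273 in pro-B cells, below the autosomal counts except in myotubes, so that counting error was larger. Lower in pro-B cells were 2 bins of chromosome 8 and 26 of chromosome X.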
